A study of Mus musculus with 30 samples.

Results

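The dose response of the quadriceps transcriptome to pacDNA-L9 was read from 10 of the 30 RNA-seq libraries of the series, those of the mice given pacDNA-L9 at 5.3 mg/kg (4 libraries, A to D), 21.2 mg/kg (3, A to C) or 42.4 mg/kg (3, A to C). pacDNA-L9 is a short locked nucleic acid oligonucleotide complementary to CUG repeats, carried on a bottlebrush polymer of polyethylene glycol, and doses are given as mass of oligonucleotide. The mice were homozygous HSA-LR animals of line 20b on the FVB/N background, which carry a human skeletal actin transgene with a long CTG repeat and model myotonic dystrophy type 1 (DM1) in skeletal muscle, where that promoter is active. All were about 8 weeks old when injected through the tail vein, and quadriceps was taken 2 weeks after the last injection. The upper doses were reached by repeated injections, so the dose cannot be told apart from the number of injections or the load of polymer. Nontreated HSA-LR mice (NT, 8 libraries) and FVB/N mice (WT, 5 libraries) are used below for reference levels only. The labels give no link between samples, so p-values measure the spread between these libraries.

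In DM1, RNA with expanded CUG repeats is retained in nuclear foci and binds muscleblind proteins such as MBNL1 and MBNL2, so that many transcripts, among them that of the muscle chloride channel gene Clcn1, are spliced in a fetal pattern. Skeletal muscle also has well known general programs. Glucocorticoids and FoxO factors raise the ubiquitin ligases Trim63 and Fbxo32 and the pyruvate dehydrogenase kinase Pdk4, fibroblasts and endothelium make the extracellular matrix, and resident macrophages take up particles and debris into lysosomes. A gene that follows the dose step by step and a gene that moves at the highest dose alone are different kinds of response, and the 3 doses were used to tell them apart.

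The 10 libraries held 16362704 to 25404614 counts. The 5.3 mg/kg libraries C and D and the 21.2 mg/kg library C belong to a second deposited set, and the deposited set was a covariate in the fits unless stated otherwise. In these libraries all 37 mitochondrial genes were listed at 0. That does not hold for the whole second set, as its library from a mouse given the free oligonucleotide had 11.97% mitochondrial counts. The set separated the libraries along the first principal component (81.1% of the variance), and the second component (5.76%) separated the 42.4 mg/kg libraries. All 3 libraries at 42.4 mg/kg are of the first set and have columns named by compound, a letter H and a running number. They were grouped here with 6 libraries of other groups, whose columns are named by group and running number alone. Among the 6 is a WT library whose column name matches no sample label. It was counted with the first set, to which all labelled WT samples belong. At an equal depth of 15302538 counts, 18435 to 18525 genes were detected at 42.4 mg/kg, against 20193 to 20831 in the first-set libraries at 5.3 mg/kg, 20261 to 20524 at 21.2 mg/kg and 20669 to 21345 in the second set. The 5 measured libraries of other groups with such column names had 17632 to 18898 genes, and the 10 other first-set libraries of those groups 18936 to 20569. The highest dose therefore cannot be told apart from what these column names mark, and with the number of detected genes as a covariate, chosen after seeing the data, 1 gene was left past the top dose step described below, in place of 611. To give a measure of it, a difference between 4 libraries of that naming and 11 others was fitted in the WT, NT, Brush and pacDNA-Scr groups (polymer alone and a scrambled sequence), and is called the naming difference below. The unmatched WT library is among the 4. By the counts of Xist and Y-linked genes, the 5.3 mg/kg library D and the 21.2 mg/kg library A came from males and the other 8 from females.

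**Figure D1:**
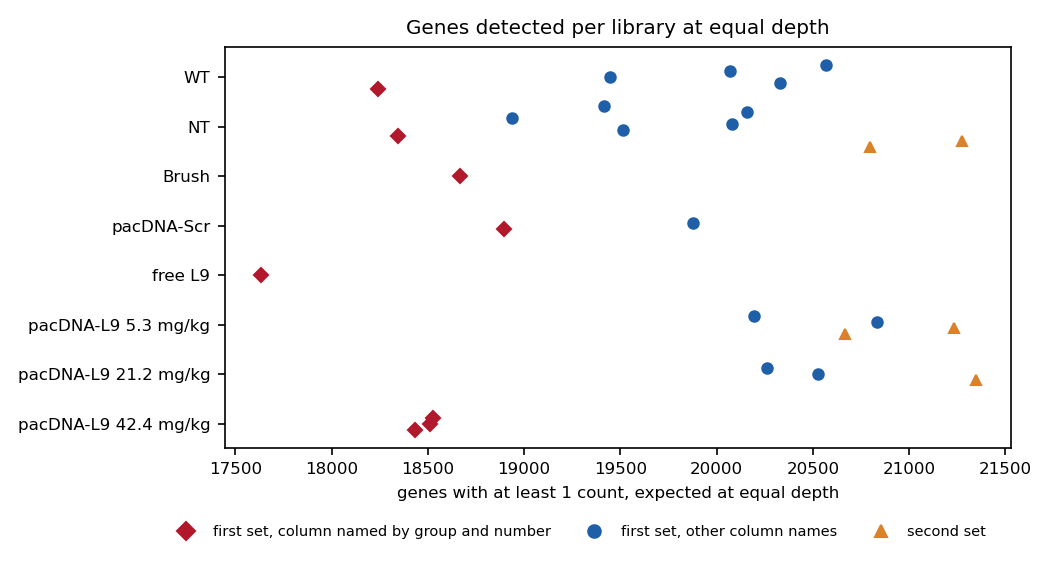
Genes with at least 1 count expected at equal depth (horizontal axis, non-mitochondrial genes) in each of 27 libraries, by group (vertical axis). Diamonds mark first-set libraries whose columns are named by group and number, circles the other first-set libraries and triangles the second set; the 3 libraries at 42.4 mg/kg lie between 18435 and 18525, with the other diamonds between 17632 and 18898.

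The labelled tissue was checked by its markers. The 10 myofibre markers, such as Ckm and Acta1, summed to 111130 to 192584 CPM (counts scaled to a common library size) in the 10 libraries, and 0 of 10 passed the trend or the top dose step. Skeletal actin itself (mouse Acta1) ran from 26467 to 51840 CPM, with a slope of 0.02 ± 0.07 (SE) on the log2 scale per doubling of the dose. The human transgene was not analysed here. In a bulk muscle sample, fewer cells of a type and less RNA per cell cannot be told apart.

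Across the 3 doses a single gene passed the regression on log2 dose with edgeR, against 206 with DESeq2's Wald test, and 129 passed with edgeR on the dose in mg/kg. Of 16107 genes tested with edgeR's quasi-likelihood test (Benjamini-Hochberg adjusted p under 0.05), Bcl6b was called, lower with dose, which is 0.00621% of the genes tested, and 1603 genes (9.95%) had an unadjusted p under 0.05, 677 (4.2%) with a positive and 926 (5.75%) with a negative slope. Between 21.2 and 5.3 mg/kg no gene was called (0%), with 463 (2.87%) at an unadjusted p under 0.05, 181 positive (1.12%) and 282 negative (1.75%), and DESeq2's Wald test called 4. Between 42.4 and 21.2 mg/kg 239 genes were called (1.48%), 78 higher (0.484%) and 161 lower (1%), and between 42.4 and 5.3 mg/kg 378 (2.35%), 149 higher (0.925%) and 229 lower (1.42%). The contrast of 42.4 mg/kg with the mean of both lower doses, called the top dose step below, called the most genes, 611 (3.79%), with 280 higher (1.74%) and 331 lower (2.06%). Every count of called members of a gene list below is to be read beside this share of 3.79%. No list was tested against it, and in a small list few or no called genes is not a result about its members.

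How a called gene reached its level at 42.4 mg/kg was described by the share of its log2 change from 5.3 to 42.4 mg/kg that was already present at 21.2 mg/kg. A gene linear in log2 dose has a share of 2 of 3, because 21.2 mg/kg lies 2 of the 3 doublings above 5.3 mg/kg. Genes with a share from 1/3 to 1 are called graded, those between -1/3 and 1/3 top only, and those at or under -1/3 opposite, since they moved the other way first. Of the 611 genes, 496 (81.2%) were top only, 67 (11%) opposite and 48 (7.86%) graded. Over all 16107 genes, for comparison, 36.2% were top only, 25.2% opposite and 19.8% graded. A further 18.7% had a share above 1, as 0 of the 611 genes did. Of the 100 genes with the smallest trend p, 82 were graded and 17 top only. The classes are a description of the same fit that called the genes. All 611 were called by the top dose step, which sets 42.4 mg/kg against the mean of both lower doses. For the same whole change this contrast is larger the smaller the share, so the split into classes follows in part from that choice. A test of departure from linearity (the curvature test) called 35 genes (0.217%), 30 with a positive (0.186%) and 5 with a negative sign (0.031%), of which 30 were top only, 5 opposite and 0 graded among the 611 genes. The borders are soft, as 22 graded and 21 top only genes lay within 0.05 of a share of 1/3. Just inside lay Traf3 (share 0.341) and Tns3 (0.341), and just outside Pald1 (0.33) and Meg3 (0.328).

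The low step could be read in each deposited set by itself, with 2 against 2 libraries in the first and 2 against 1 in the second. For 47 of the 48 graded genes (97.9%) its sign was the same in both sets, as it was for 45% of all genes and 49% of the top only genes. Both sets entered the fit from which the class was drawn, so this share describes the members and tests nothing.

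**Figure D2:**
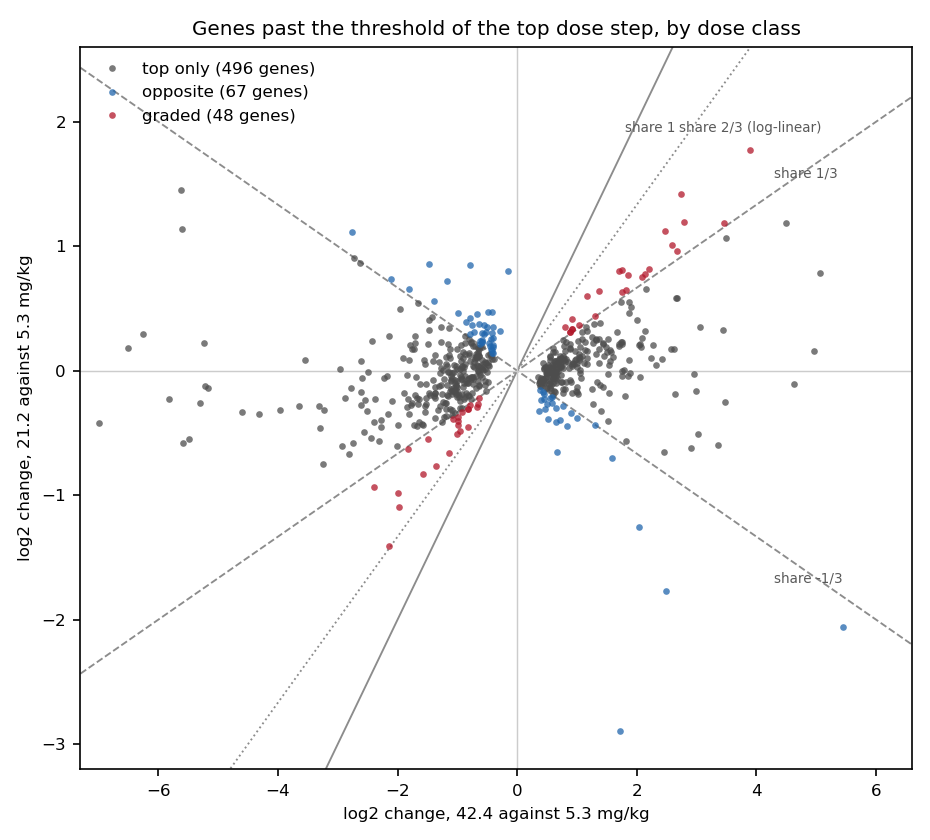
Log2 change at 21.2 against 5.3 mg/kg (vertical axis) and at 42.4 against 5.3 mg/kg (horizontal axis) for the 611 genes of the top dose step, 1 point per gene. Lines mark shares of 1, 2/3, 1/3 and -1/3; most points lie near a vertical value of 0, the 496 top only genes, while the 48 graded genes lie mostly between the lines of 1/3 and 2/3, on both sides of 0.

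The graded genes that were lower with dose included a transcriptional repressor of endothelium, a cytoskeletal actin and basement membrane collagen. Bcl6b (ENSMUSG00000000317, GRCm39 chromosome 11, 70113871 to 70120624, minus strand) encodes a zinc finger repressor related to BCL6. Its level was 12.9, 10.2, 8.89 and 10.8 CPM at 5.3 mg/kg, 4.6, 5.91 and 2.65 CPM at 21.2 mg/kg and 3.03, 2.93 and 2.65 CPM at 42.4 mg/kg (in each list libraries are in the order A to D). The levels at 5.3 mg/kg did not overlap those at the higher doses, and the 21.2 mg/kg library C reached the lowest value of the 42.4 mg/kg libraries. The slope was -0.71 ± 0.07 (SE) per doubling of the dose (adjusted p = 0.00479), and the step to 21.2 mg/kg made up 0.658 of the whole change. NT mice ranged from 3.64 to 9.52 CPM in the first set and from 4.57 to 5.29 CPM in the second, and WT mice from 4.62 to 15.9 CPM. The 5.3 mg/kg libraries thus lay above the NT range of their own set, and those at 42.4 mg/kg below that of the first set. Without the 5.3 mg/kg library A the slope of Bcl6b was -0.709 and its adjusted p from edgeR 0.123, and without the set covariate they were -0.634 and 0.0882.

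Actg1, the cytoplasmic gamma actin, was at 128, 125, 141 and 156 CPM at 5.3 mg/kg, 89, 99.1 and 106 CPM at 21.2 mg/kg and 70.1, 71.5 and 75 CPM at 42.4 mg/kg. The 3 doses did not overlap over the 10 libraries. It was called at the top dose step (-0.60 ± 0.10 SE, adjusted p = 0.0103), while its slope, -0.26 per doubling, missed the threshold (adjusted p = 0.0644). Ccnd2, a D-type cyclin, fell at the top dose step by 1.51 on the log2 scale (adjusted p = 0.00529), from 13.2 to 16.8 CPM at 5.3 mg/kg through 7.3, 9.68 and 12.6 CPM to 4.12, 3.17 and 4.94 CPM at 42.4 mg/kg. Ets1, an endothelial and lymphoid transcription factor, went from 17.1 to 26.7 CPM through 16.2 to 19.5 CPM to 10.8 to 13.8 CPM (adjusted p = 0.0118). Ccnd2 and Ets1 were chosen after their values were seen, as were Lyz1, Ms4a4a, Adam8, Apod, Cblb, Tacc2, Tead1 and Dnmt3a below.

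Col15a1, a collagen of basement membranes, was at 80.8, 60.7, 30.3 and 25.3 CPM at 5.3 mg/kg, 22.9, 22 and 22.6 CPM at 21.2 mg/kg and 17, 11.4 and 16.7 CPM at 42.4 mg/kg. The decline was steep in the first set, while the second set's libraries at 5.3 mg/kg lay just above its library at 21.2 mg/kg. It was called at the top dose step (-1.44 ± 0.28 SE, adjusted p = 0.0287), as was the elastin crosslinking enzyme gene Loxl1 (-0.80, adjusted p = 0.0466). Leaving out the males gave Col15a1 as one of 17 genes past the trend test, with the perlecan gene Hspg2, Fbn1, Pald1, Actg1 and Bcl6b among the 6 that were lower.

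The matrix genes as a list had different low steps in the 2 deposited sets. Of 30 matrix genes tested, 0 passed the trend, 2 passed the top dose step (both lower, Col15a1 and Loxl1), and 17 had a negative and 1 a positive slope at an unadjusted p under 0.05. The 30 genes summed to 5852 and 4603 CPM in the first-set libraries at 5.3 mg/kg, but to 2666 and 2086 CPM in the second-set libraries of that dose. At 21.2 mg/kg the sums were 2216, 2186 and 2602 CPM, and at 42.4 mg/kg 3333, 2811 and 2851 CPM. The first-set libraries at 5.3 mg/kg were thus the high ones, also beside NT mice (2124 to 4331 CPM in the first set), and the other 8 lay between 2086 and 3333 CPM, with the highest of them at 42.4 mg/kg. The median low step over the list was -1.28 in the first set and 0.098 in the second, with the same sign in both for 12 of 30 genes. In the first set alone 10 genes passed the low step, 9 of them lower matrix genes (Sparc, Col3a1, Col4a1, Col4a2, Col5a1, Col5a2, Col15a1, Fbn1 and Loxl2), with the matricellular gene Ccn1 as the higher one. A test of the interaction of the low step with the set called 0 genes with edgeR, and 707 of the 16107 genes tested had an unadjusted p under 0.05. For no single gene was the low step thus shown to differ between the sets. The fibroblast markers moved alongside, with 2688 and 1797 CPM in those 2 libraries and 814 to 1351 CPM in the other 8, and the part of fibroblast content in the matrix values was not tested.

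Among the graded genes with higher levels at 42.4 mg/kg were Apoe, Ctss, Ccl6, Lyz1 and Ms4a4a, which macrophages are known to express. None passed the trend test over all genes, and the values given are for those with the smallest trend p or a place in a list. Leaving out the males, a fit chosen after seeing the data, 11 genes passed edgeR's trend test with a positive slope. Among them were Apoe (adjusted p = 0.0293), Ccl6 (0.0285), Ctss (0.0469) and Lyz1 (0.0469), while Ms4a4a was not. Apoe, the lipid carrier that macrophages secrete, was at 128, 123, 96.9 and 112 CPM at 5.3 mg/kg, 133, 242 and 162 CPM at 21.2 mg/kg and 292, 318 and 227 CPM at 42.4 mg/kg. All 3 libraries at 21.2 mg/kg lay above those at 5.3 mg/kg, and 1 of them reached into the range of 42.4 mg/kg. It was called at the top dose step (0.86 ± 0.18 SE, adjusted p = 0.0289), with a share of 0.515 and a trend adjusted p of 0.129. NT mice ranged from 51.8 to 206 CPM in the first set.

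The lysosomal protease gene Ctss was at 9.31, 6.53, 10.4 and 8.47 CPM, then 6.35, 15.7 and 20.9 CPM, then 29.9, 30.7 and 17.1 CPM at 42.4 mg/kg (top dose step 1.47 ± 0.33 SE, adjusted p = 0.0438). The chemokine gene Ccl6 was at 3.85, 3.77, 4.56 and 6.22 CPM, then 2.36, 8.33 and 15.7 CPM, then 19.1, 29.6 and 13.8 CPM (2.19 ± 0.43 SE, adjusted p = 0.0323). In both genes the 21.2 mg/kg library A, from a male, stayed at the level of 5.3 mg/kg and library C lay within the range of 42.4 mg/kg. The lysozyme gene Lyz1 and the membrane protein gene Ms4a4a had the same order of libraries at 21.2 mg/kg (1.24, 3.63 and 7.39 CPM for Lyz1, 1.12, 2.37 and 6.7 CPM for Ms4a4a), and reached 5.68 to 9.14 CPM and 3.93 to 9.21 CPM at 42.4 mg/kg, with top dose steps of 1.75 and 2.08. The naming difference was 0.80 for Lyz1 and 0.82 for Ms4a4a, in the direction of the dose step. Adam8, a leukocyte metalloprotease, was at or under 1.87 CPM in all 7 lower-dose libraries and at 2.75, 8.97 and 3.35 CPM at 42.4 mg/kg. In NT mice of both sets Ctss ran from 1.91 to 6.27 CPM and Ccl6 from 1.99 to 6.18 CPM.

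Other graded genes had other roles. Zfp36, which encodes the mRNA decay factor tristetraprolin, was at 8.92, 12.9, 8.85 and 11.2 CPM, then 30.1, 33.5 and 13.7 CPM, then 52.5, 97.6 and 62.5 CPM (top dose step 1.90 ± 0.27 SE, adjusted p = 0.01). The rise to 21.2 mg/kg was larger in the first set than in the second. It was at 68.7 CPM in NT 6, a library with the naming described above, and at 26.6 CPM or less in the other first-set NT mice, and the naming difference for Zfp36 was 0.97. Serping1, the C1 inhibitor of complement, was at 27.1 to 49.7 CPM, then 51 to 59.5 CPM, then 80 to 82.5 CPM (adjusted p = 0.0277), with no overlap between doses. BC023105 went from 11.9 to 18.3 CPM through 18 to 29.9 CPM to 28.7 to 48.6 CPM (adjusted p = 0.0056), but shares its whole exonic length with another annotated gene on its strand, so its counts are uncertain. Teddm2 was called as well (1.05, adjusted p = 0.0259), and its first-set libraries rose with dose without overlap, from 1.5 to 5.07 CPM. The second set counted it at 44 to 89.2 CPM, so the step fitted over both sets depends on the set covariate. Fcna, a ficolin of macrophages, had the fifth smallest trend p among genes with a positive slope and missed both tests (top dose step 1.10, adjusted p = 0.0512).

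**Figure D3:**
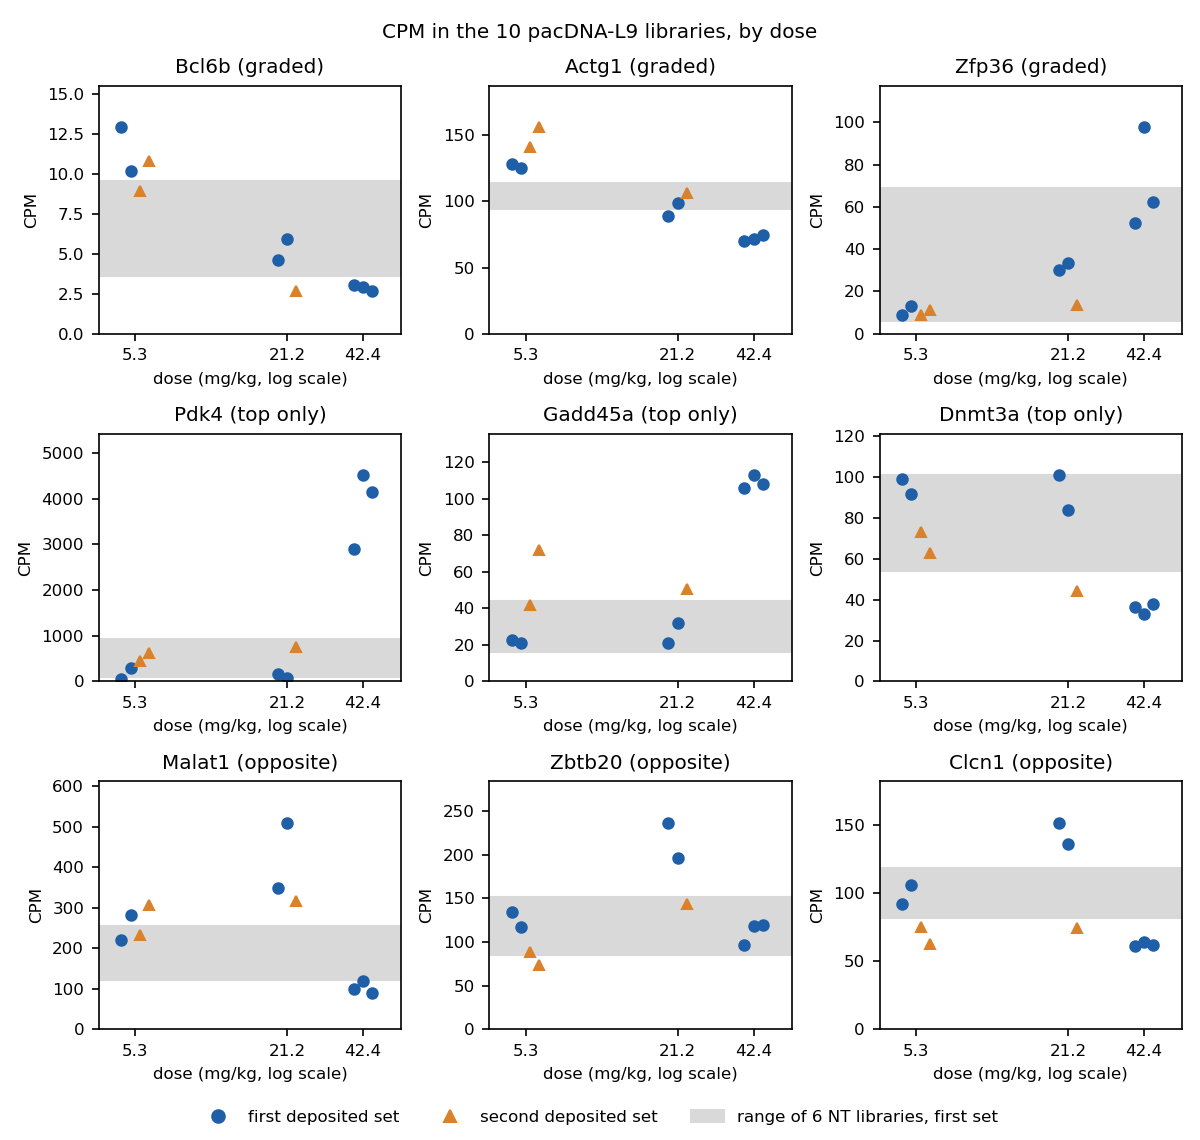
CPM (vertical axes, from 0) in each of the 10 libraries against dose in mg/kg (horizontal axes, log scale, points spread sideways for clarity) for 3 graded, 3 top only and 3 opposite genes. Circles are first-set and triangles second-set libraries, and the grey band is the range of 6 NT libraries of the first set. Bcl6b and Actg1 descend and Zfp36 ascends at each dose, Pdk4 lies at 2897 to 4522 CPM at 42.4 mg/kg alone, and Malat1, Zbtb20 and Clcn1 are highest in the first-set libraries at 21.2 mg/kg.

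The 17 macrophage markers were described as a list because several graded genes belong to these cells. None of them passed the trend or the top dose step, 9 had a positive slope at an unadjusted p under 0.05 and 0 a negative one, and the median slope was 0.27 per doubling, against -0.0075 over all genes (4.2% of which had a positive slope at that level). Their summed level was 239, 180, 209 and 227 CPM at 5.3 mg/kg, 190, 286 and 363 CPM at 21.2 mg/kg and 401, 533 and 318 CPM at 42.4 mg/kg. The sums overlapped between 21.2 and 42.4 mg/kg, and the lowest sum, 180 CPM, lay above the 105.9 to 172.5 CPM of first-set NT mice. Markers with a slope at that level were Lyz2 (0.49 per doubling), Fcgr3 (0.47), C1qb (0.34), Cd163 (0.33), Tyrobp (0.32), Adgre1 (0.27), C1qa (0.27), Cd68 (0.24) and C1qc (0.23), while Csf1r (0.03), Mrc1 (-0.01) and Ptprc (0.03) had slopes near 0. Neutrophil markers summed to at most 2.40 CPM and lymphocyte markers to at most 1.58 CPM in any library.

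Of 14 complement genes, 7 had a positive slope at that level, and Serping1 was the one called at the top dose step. Of 30 lysosomal genes, 4 were called, all higher (Ctsl, Ctss, Ctsd and Psap), and 9 had a positive slope at an unadjusted p under 0.05. The lysosomal list summed to 2541 to 2858 CPM in the 7 lower-dose libraries and to 3604, 3682 and 3293 CPM at 42.4 mg/kg, so as a whole it stood apart at the top dose and not before. Ctsl, a cathepsin that muscle fibres also raise in atrophy, was at 64.4 to 96.6 CPM in the lower-dose libraries and at 114, 145 and 127 CPM at 42.4 mg/kg (0.85 ± 0.11 SE, adjusted p = 0.00297), and Psap, the saposin precursor, at 615 to 729 CPM and then 957, 1038 and 862 CPM (0.44, adjusted p = 0.0474). The naming difference had the same sign for these (0.43 for Ctsl, 0.35 for Ctsd, 0.12 for Psap and 0.05 for Ctss). None of 18 interferon-stimulated genes, 11 genes of nucleic acid sensing or 6 MHC class II genes was called, beside 3.79% of all genes. At that share lists of this size can hold no called gene, so these counts do not show that the genes were unchanged. The lists held 22, 13 and 7 genes, and the remaining ones, among them Mx1, Zbp1, Tlr9 and Cgas, were not tested.

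**Figure D4:**
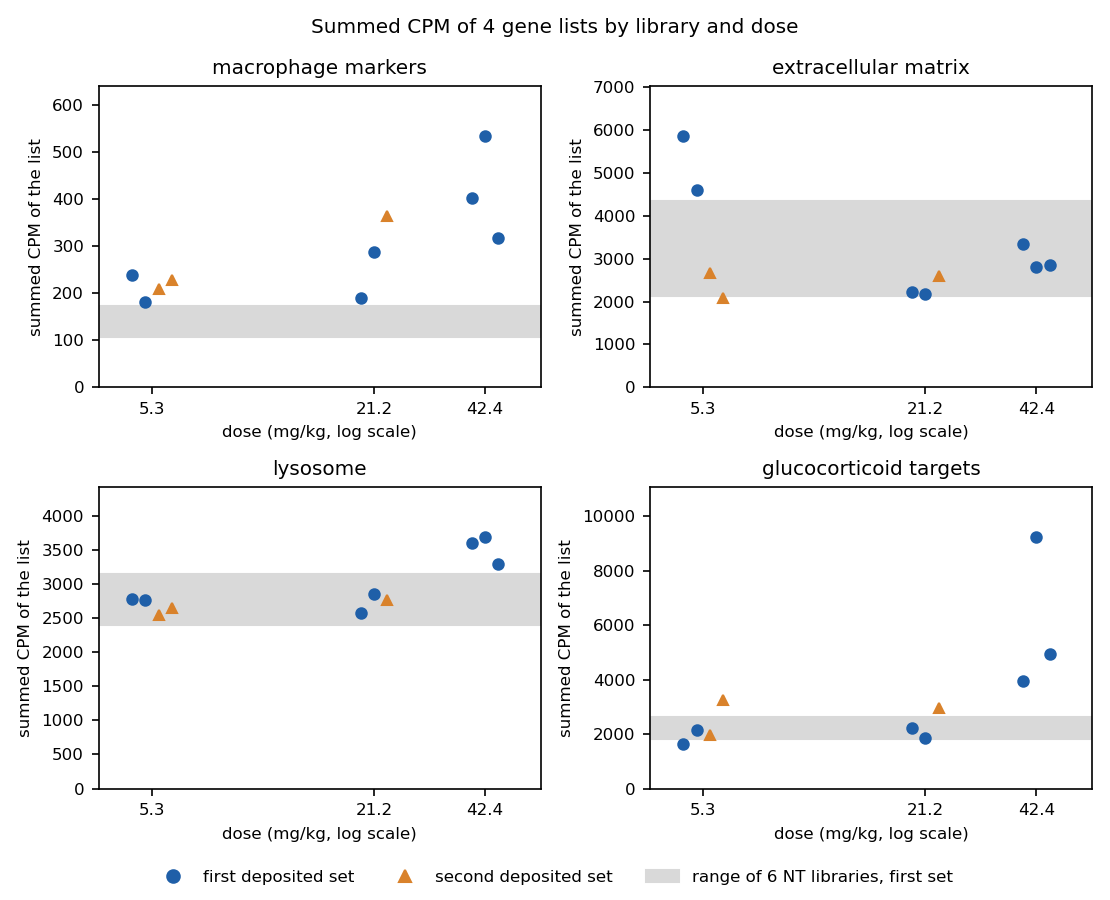
Summed CPM of the members of 4 gene lists (vertical axes, from 0) in each of the 10 libraries against dose in mg/kg (horizontal axes, log scale, points spread sideways). Circles are first-set and triangles second-set libraries, and the grey band is the range of 6 first-set NT libraries. The macrophage sums climb from 180 to 533 CPM with overlap between doses, the matrix sums are high in the 2 first-set libraries at 5.3 mg/kg alone, and the lysosomal and glucocorticoid lists are highest in the 3 libraries at 42.4 mg/kg.

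Among the top only genes that were higher were Mt1, Mt2, Pdk4, Ucp3, Depp1 and 6430548M08Rik, which the naming rule gave by size, and ubiquitin ligases named from a list. Mt1, a zinc-binding metallothionein, was at 8.64, 25.7, 11.9 and 34.7 CPM at 5.3 mg/kg, 13.5, 12 and 44.7 CPM at 21.2 mg/kg and 243, 833 and 273 CPM at 42.4 mg/kg (top dose step 4.89 ± 0.74 SE, adjusted p = 0.0244). First-set NT mice had 6.21 to 48.9 CPM for Mt1 and second-set NT mice 6.64 to 11 CPM, so the first-set libraries of the lower doses lay inside the range of their set and the 3 second-set libraries above that of theirs. The naming difference was 0.996 for Mt1, in the direction of the dose step. Mt2 was at 0.892, 0.266, 8.13 and 27.3 CPM, then 0.674, 1.02 and 32.5 CPM, then 10.5, 33.5 and 8.95 CPM (4.67, adjusted p = 0.0219). Within the first set all 3 libraries at 42.4 mg/kg lay above those of the lower doses. The second set counted Mt2 at the level that 42.4 mg/kg reached in the first, so the step fitted over both sets depends on the set covariate. Of the exonic bases of Mt2, 82.4% overlap a gene on the other strand. Of 7 metallothionein and zinc transporter genes, Mt1 and Mt2 were the 2 called.

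Metal-responsive transcription of both genes runs through short elements in their promoters, and a stretch of each is shown to place such an element. In the RefSeq promoter sequences (GRCm38.p6, 250 bases before to 50 after the start of each gene), the letters TGCGCNC, read on both strands, occur once for Mt1 and at 2 places for Mt2, and at least once in 15.4% of all 32851 promoters. The stretches are of the plus strand, at chr8:94179101-94179124 for Mt1 and chr8:94172614-94172637 for Mt2. The last match along each promoter is in capitals, and the letters read on the plus strand for Mt1 and on the minus strand for Mt2.
Mt1: ccgaaaagTGCGCTCggctctgcc
Mt2: ttcgggtcGTGCGCAggcccaggg
The FoxO motif GTAAACA, searched in the same way, occurred in 3.65% of all promoters and in 1 of 4 with a RefSeq promoter among the 5 called genes of the FoxO and ubiquitin ligase list. That was Trim63, shown on the plus strand at chr4:134314918-134314941, again with the match in capitals. Its letters read on the minus strand.
Trim63: tctgttctTGTTTACgacccccac

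Pdk4, the kinase that closes pyruvate oxidation in fasting (GRCm39 chromosome 6), was at 59.6, 300, 446 and 622 CPM at 5.3 mg/kg, 174, 72.2 and 758 CPM at 21.2 mg/kg and 2897, 4522 and 4146 CPM at 42.4 mg/kg. The top dose step was 4.68 ± 0.63 SE (adjusted p = 0.0153) and the share -0.023. NT mice ranged from 88.8 to 325 CPM apart from NT 6, at 938 CPM, WT mice reached 1098 CPM, and the naming difference was 1.76, in the direction of the dose step. Ucp3, a mitochondrial carrier raised by fatty acids, went from 49.2 to 213 CPM in the lower-dose libraries to 410, 602 and 551 CPM (2.88 ± 0.30 SE, adjusted p = 0.00297). Mlycd (0.93, adjusted p = 0.0194) and Ppargc1a, the coactivator of mitochondrial biogenesis (1.49, adjusted p = 0.0448, graded), made up the 4 of 27 genes of fatty acid use that were called, while 0 of 40 nuclear oxidative phosphorylation genes and 0 of 20 glycolysis genes were.

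The FoxO and ubiquitin ligase list had 5 of 19 genes called, all higher. Gadd45a, a stress-induced growth arrest gene, was at 22.5, 21.1, 42.1 and 71.7 CPM, then 21.1, 31.8 and 50.8 CPM, then 106, 113 and 108 CPM (2.18 ± 0.19 SE, adjusted p = 0.00163), with a naming difference of -0.15. Of its exonic bases 55.8% overlap a gene on the other strand. Gabarapl1, of the autophagosome, was at 38 to 71 CPM in the lower-dose libraries and at 103, 158 and 114 CPM at 42.4 mg/kg (1.51 ± 0.15 SE, adjusted p = 0.00163). In both genes every library at 42.4 mg/kg lay above every other library of the 10. Fbxo32 (atrogin-1) was at 165, 227, 242 and 439 CPM, then 186, 279 and 253 CPM, then 615, 986 and 792 CPM (1.89 ± 0.27 SE, adjusted p = 0.00854). Trim63 (MuRF1) was at 158 to 435 CPM and then 503, 2276 and 799 CPM (2.74 ± 0.51 SE, adjusted p = 0.0342). Library B at 42.4 mg/kg was the highest in each of Trim63, Fbxo32, Mt1 and Zfp36. Mstn, the muscle growth inhibitor myostatin, was the fifth called gene (0.98, adjusted p = 0.0363), with a naming difference of the other sign (-0.85).

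Of 20 glucocorticoid targets, 6 were called, all higher: Fbxo32, Trim63, Mt2, Cebpd, Tsc22d3 and Glul. The median top dose step over the list was 1.67, against -0.00745 over all genes, and the median low step 0.18. Cebpd, a C/EBP transcription factor, was at 10.8 to 25.3 CPM in the lower-dose libraries and at 54.9, 140 and 71.8 CPM at 42.4 mg/kg (2.37 ± 0.36 SE, adjusted p = 0.0161), and Tsc22d3 (GILZ) at 164 to 551 CPM and then 603, 781 and 607 CPM (1.75, adjusted p = 0.0244). The 5.3 mg/kg library D, at 551 CPM for Tsc22d3, was close to the 42.4 mg/kg libraries. Further targets had large steps that missed the threshold, among them Ddit4 (4.43, adjusted p = 0.0583), Cdkn1a (2.81, adjusted p = 0.0518) and Fkbp5 (2.87, adjusted p = 0.104). The receptor gene Nr3c1 was at 93.7 to 127 CPM in the lower-dose libraries and at 65.2, 126 and 62.8 CPM at 42.4 mg/kg (-0.49, adjusted p = 0.273). The list summed to 1653 to 3266 CPM in the lower-dose libraries and to 3963, 9219 and 4925 CPM at 42.4 mg/kg, beside 1816 to 2640 CPM in first-set NT mice.

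Depp1, a FoxO-induced autophagy regulator, rose by 3.90 (adjusted p = 0.0215), with 1.89 to 15.7 CPM in the lower-dose libraries and 56.1, 179 and 57 CPM at 42.4 mg/kg, but was at 61 CPM in NT 6 as well, with a naming difference of 2.05. The uncharacterized gene 6430548M08Rik was at 29.6 to 57.2 CPM and then 181, 627 and 270 CPM (3.29 ± 0.42 SE, adjusted p = 0.0108). Myf6 (MRF4), the myogenic factor of mature fibres, was at 90.3, 73.8, 91.2 and 183 CPM, then 76, 94.1 and 121 CPM, then 316, 283 and 317 CPM (1.87 ± 0.20 SE, adjusted p = 0.00197), and was the 1 called gene of 13 myogenic regulators. Tacc2, a centrosome-associated gene, was at 497 to 803 CPM in the lower-dose libraries and at 1873, 3908 and 2435 CPM at 42.4 mg/kg (1.95, adjusted p = 0.00359), and Cblb, an E3 ubiquitin ligase of insulin signaling, at 13.7 to 19.4 CPM and then 35, 53.5 and 46 CPM (1.43, adjusted p = 0.00197). Apod, an apolipoprotein, lay at the border of the classes with a share of 0.293, and its first-set libraries rose at each dose (18.6 and 24, 24.3 and 25.2, then 47.3, 53.4 and 46 CPM; adjusted p = 0.00197). The fibroblast marker genes Pdgfra (0.62, adjusted p = 0.0396) and Pi16 (0.82, adjusted p = 0.017) were called higher at 42.4 mg/kg, 2 of 8 in that list, in which 3 genes had a positive and 3 a negative slope at an unadjusted p under 0.05 and the median top dose step was 0.0493.

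Some genes of protein synthesis and turnover were called with small steps. Of 25 proteasome genes 5 were called, all higher, of 33 cytosolic ribosomal protein genes 4, and of 19 autophagy genes 4. Over all genes the share was 3.79%. The steps were 0.51 for Psma6, 0.46 for Psma5, 0.44 for Psmb1 and 0.42 for Psmc2 (adjusted p from 0.0189 to 0.0438). They were 0.50 for Rps23, 0.44 for Rpl7, 0.53 for Rpl37a and 0.58 for Rps27a, all 33 ribosomal genes lying above 0 at the step from 21.2 to 42.4 mg/kg. The naming difference had the same sign for each of these 8 genes, from 0.10 for Psmc2 to 0.45 for Rps27a. Without the set covariate the step of Rps27a was -0.37, since the second set counted it at 166 to 174 CPM and the first at 44.1 to 83.7 CPM. Of the autophagy genes, the receptor Sqstm1 (p62) was at 398 to 549 CPM in the lower-dose libraries and at 772, 786 and 722 CPM at 42.4 mg/kg (0.61, adjusted p = 0.0344), and Optn (0.69, adjusted p = 0.0416) and Atg13 (0.60, adjusted p = 0.0213) were called beside Gabarapl1.

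**Figure D5:**
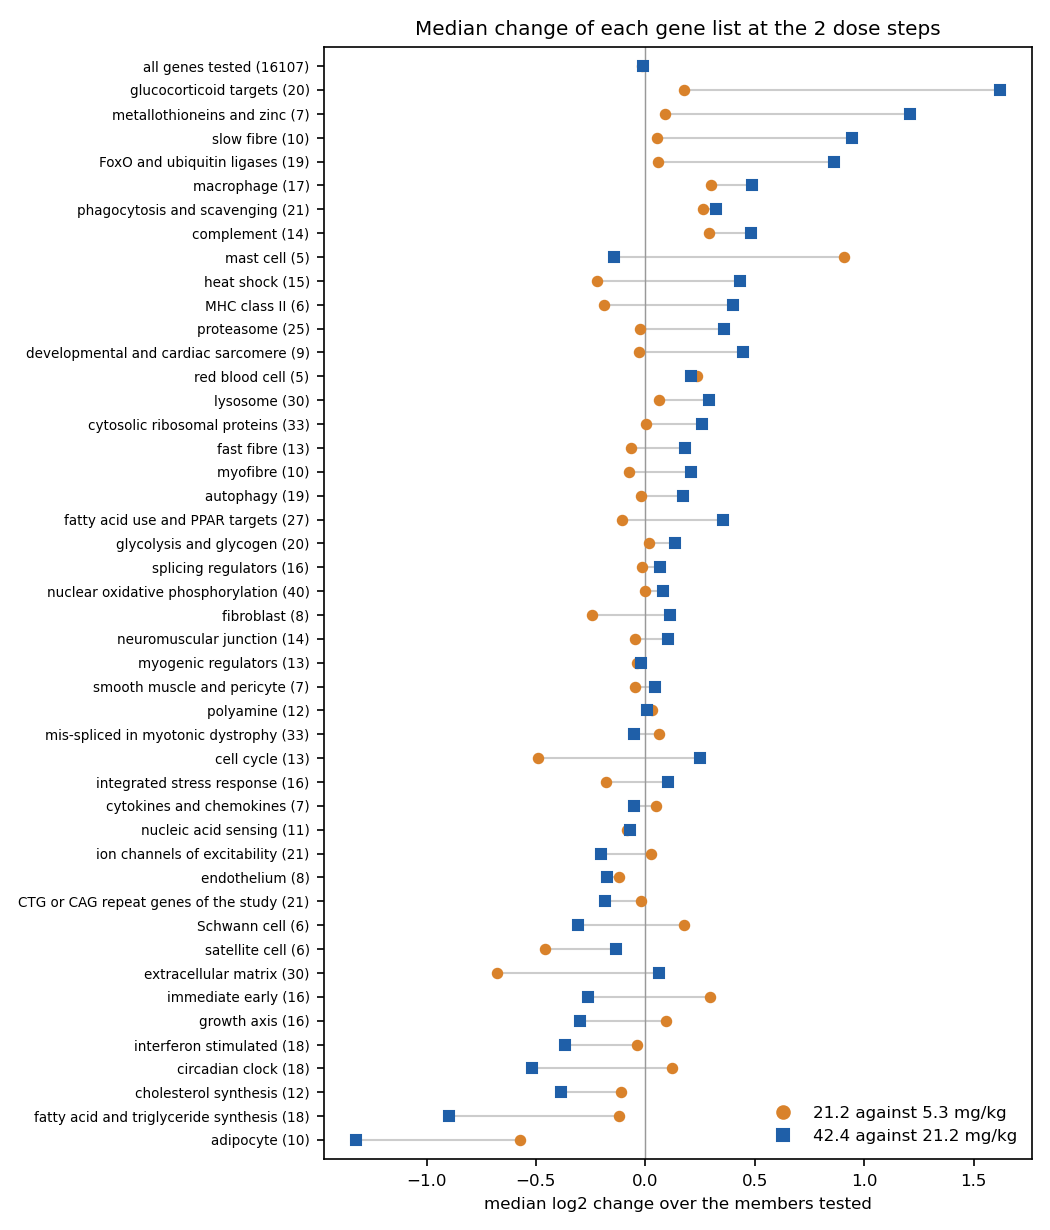
Median log2 change over the members tested (horizontal axis) of the lists with at least 5 members tested (vertical axis, number tested in brackets), for the step from 5.3 to 21.2 mg/kg (circles) and from 21.2 to 42.4 mg/kg (squares). The macrophage, complement, phagocytosis and red blood cell lists have both medians above 0.2, the glucocorticoid list has 0.175 and 1.62, the matrix list has -0.68 and 0.0615, and all genes lie at -0.0167 and -0.0105.

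The top only genes that were lower included a DNA methyltransferase, clock genes and genes of excitability and the neuromuscular junction. Dnmt3a, a de novo DNA methyltransferase, was at 99, 91.8, 73.1 and 63 CPM at 5.3 mg/kg, 101, 84 and 44.5 CPM at 21.2 mg/kg and 36.4, 33 and 37.8 CPM at 42.4 mg/kg (-1.40 ± 0.14 SE, adjusted p = 0.00163). Tead1, the DNA-binding partner of YAP, was at 185 to 253 CPM and then 118, 113 and 116 CPM (-0.97 ± 0.11 SE, adjusted p = 0.00197). The 42.4 mg/kg libraries of both genes lay below all 7 others and within a narrow range of each other.

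Lipid synthesis and peroxisomal transport had a called gene each. Scd2, a stearoyl-CoA desaturase, was at 36.6, 37.2, 23.8 and 24.8 CPM, then 32.5, 36.7 and 18.7 CPM, then 14.8, 12.5 and 16.6 CPM (-1.29 ± 0.13 SE, adjusted p = 0.00163), and was the 1 of 18 fatty acid and triglyceride synthesis genes called. Abcd2, a peroxisomal fatty acid transporter, was at 52.9 to 79.8 CPM and then 32.1, 28.5 and 32.7 CPM (-1.10 ± 0.12 SE, adjusted p = 0.00197). Azin1, which protects ornithine decarboxylase from decay, fell by 0.94 (adjusted p = 0.00271), and Sat1, which breaks polyamines down, rose by 1.11 (adjusted p = 0.0159).

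Of 18 clock genes 4 were called, all lower, beside 3.79% of all genes. Bhlhe40 was at 165, 148, 114 and 114 CPM, then 145, 168 and 76.7 CPM, then 55.4, 63.3 and 41.4 CPM (-1.56 ± 0.17 SE, adjusted p = 0.00197). Dbp was at 32.4 to 116 CPM and then 23.6, 10.8 and 21.3 CPM (-2.54 ± 0.44 SE, adjusted p = 0.0266), and Nr1d1 (-1.70, adjusted p = 0.0287) and Nr1d2 (-0.89, adjusted p = 0.0342) were lower too. The clock genes also varied widely in untreated mice, Dbp from 12.9 to 148 CPM over NT libraries and from 6.56 to 133 CPM over WT libraries, and the naming difference was -1.51 for Dbp, -0.67 for Nr1d1 and -0.49 for Nr1d2. The hour of tissue collection is not given in the sources used here.

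Of 21 genes of excitability, Kcna7 and Clcn1 were called, both lower. Kcna7, a potassium channel of muscle, was at 256, 228, 148 and 161 CPM, then 282, 255 and 129 CPM, then 138, 115 and 117 CPM (-1.05 ± 0.13 SE, adjusted p = 0.00215). All 3 libraries at 42.4 mg/kg lay below the first-set libraries of the lower doses, at 228 to 282 CPM, and library A, at 138 CPM, lay within the range of the second set, at 129 to 161 CPM. At the neuromuscular junction, Lrp4, the agrin receptor, was at 13 to 28 CPM and then 8.71, 8.97 and 11.5 CPM (-1.29 ± 0.15 SE, adjusted p = 0.00197), and Agrn itself at 7.66 to 20.8 CPM and then 7.25, 6.57 and 10.1 CPM (-1.07, adjusted p = 0.013), 2 of 14 genes in that list. The 2 of 21 and the 2 of 14 stand beside 3.79% of all genes called, and neither list was tested against that share. The muscle neurotrophin gene Ntf5 was lower as well (-1.16, adjusted p = 0.0157).

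The 6 top only genes with the largest declines by the naming rule were a different matter. 4930506C21Rik, Wdr38, Gm17224, Ilk, Map3k15 and Gm15932 were each under 1 CPM in all 7 first-set libraries, and at 43 to 911 CPM in the 3 second-set libraries. 4930506C21Rik, for instance, was at 0.279, 0.4, 0.674 and 0.678 CPM in the first-set libraries of the lower doses, at 0 in the 3 libraries at 42.4 mg/kg, and at 273, 323 and 307 CPM in the second set. Their log2 changes of -2.70 to -6.40 therefore rest on a few reads per library. Of the 611 genes, 25 were under 1 CPM in all first-set libraries, and 14 of those were at 5 CPM or more in every second-set library. Over all 16107 genes tested, 2352 were under 1 CPM in all first-set libraries, and 503 of those were at 5 CPM or more in every second-set library. Whether both sets were counted with the same annotation and strand setting is not given in the sources used here, so a level of the second set may not be comparable with one of the first.

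Among the 67 genes of the opposite class, Malat1, an abundant nuclear noncoding RNA, was at 220, 283, 233 and 307 CPM at 5.3 mg/kg, 349, 510 and 316 CPM at 21.2 mg/kg and 99.8, 120 and 88.8 CPM at 42.4 mg/kg (top dose step -1.68 ± 0.19 SE, adjusted p = 0.00197, and curvature adjusted p = 0.0207). The naming difference was -0.90. Zbtb20, a transcriptional repressor, was at 134, 117, 89 and 73.2 CPM, then 237, 196 and 144 CPM, then 96.1, 119 and 120 CPM. Its low step was positive in both sets and its level at 42.4 mg/kg was back in the range of 5.3 mg/kg (top dose step -0.56, adjusted p = 0.0365). The naming difference for Zbtb20 was -0.74, larger than its top dose step and in the same direction. It was called in 3 of the 10 fits that left out 1 library. Clcn1, the chloride channel whose loss causes myotonia, was at 92.3, 106, 75.5 and 63 CPM, then 152, 136 and 74.2 CPM, then 61.3, 63.9 and 61.8 CPM (-0.94 ± 0.13 SE, adjusted p = 0.00369, and curvature adjusted p = 0.0207). NT mice of the first set had 82.2 to 119 CPM and WT mice 124 to 215 CPM, so the first-set libraries at 21.2 mg/kg lay above the NT range and those at 42.4 mg/kg below it. These are gene-level counts and say nothing of which exons were included.

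Genes of the opposite class that were higher at 42.4 mg/kg included those of protein stress. Hspa8, a constitutive heat shock cognate, was at 561, 471, 566 and 1282 CPM, then 415, 380 and 630 CPM, then 1061, 841 and 925 CPM (1.06 ± 0.23 SE, adjusted p = 0.031). The 5.3 mg/kg library D exceeded all 3 libraries at 42.4 mg/kg, and the naming difference for Hspa8 was 0.59. Atf4 (0.64, adjusted p = 0.039) and the amino acid transporter subunit Slc3a2 (0.52, adjusted p = 0.0252) were the 2 called of 16 genes of the integrated stress response, and Hspa8 the 1 of 15 heat shock genes. These counts, too, stand beside 3.79% of all genes.

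The low step called no gene, so its leading genes are given as values that did not pass. With positive steps these were Zbtb20, BC023105, Mylk4, Gm55094 and Selenop, and with negative steps Bcl6b, Col5a3, Rflnb, Actg1 and Col4a2. Mylk4, a muscle light chain kinase, was at 1430, 1518, 1587 and 1820 CPM, then 3121, 1995 and 2486 CPM, then 1794, 2086 and 1770 CPM at 42.4 mg/kg. Selenop, the selenium carrier, was at 131 to 165 CPM, then 152 to 262 CPM, then 172 to 235 CPM. Col4a2 was at 218 and 246 CPM in the first-set libraries of 5.3 mg/kg and at 77.6 to 160 CPM in the other 8.

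Of 33 genes known to be mis-spliced in DM1, 3 were called at the top dose step (Mbnl2 higher, Clcn1 and Clasp1 lower). Mbnl2, a splicing regulator captured by CUG repeats, was at 149, 172, 172 and 155 CPM, then 194, 166 and 233 CPM, then 200, 363 and 278 CPM (0.72 ± 0.18 SE, adjusted p = 0.0474), and was graded with a share of 0.352. Of the 21 genes with CTG or CAG repeats that the study lists, 0 were called with edgeR in the trend or at the top dose step, and 0 had a positive and 3 (Ptbp1, Ltbp3 and Armcx6) a negative slope at an unadjusted p under 0.05, with a median slope of -0.05. Tcf4 was at 36.5 to 61.2 CPM in the lower-dose libraries and at 37.7, 27.1 and 36.2 CPM at 42.4 mg/kg (-0.65 ± 0.17 SE, adjusted p = 0.0575), and Dmpk at 371 to 689 CPM and then 480, 429 and 415 CPM (-0.41, adjusted p = 0.114). Gtf2b, a common reference gene, was at 10.6 to 13.7 CPM and then 16, 17 and 13.5 CPM (0.47 ± 0.13 SE, adjusted p = 0.0696).

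Runs of CTG were counted in the annotated transcripts of the protein-coding genes tested. A run of at least 3 was present in 24.7% of 13126 genes, in 34.8% of the 270 lower and in 20.2% of the 238 higher at the top dose step, and a run of at least 6 in 0.937%, 1.48% and 0.84%. Transcript length moved with the same split, the median longest transcript being 4425.5 bases over all these genes, 5928 bases for the lower and 3824.5 bases for the higher. Of genes with a longest transcript of up to 1500 bases 28 were higher and 2 lower, and of those over 8000 bases 17 were higher and 66 lower. The part of length in the share with repeats was not tested.

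Of the 47 gene lists, 25 held at least 1 gene of the top dose step and 22 held none. Over the 673 distinct members tested, 59 were called (8.77%), 43 higher and 16 lower, beside 3.79% of all genes. The lists were chosen with earlier results of these data known, so their share is a description. Lists without a called gene included those of endothelium, smooth muscle, satellite cells, adipocytes, slow and fast fibres and the cell cycle. Some varied within a dose more than between doses, as the slow fibre list did, at 316 to 2401 CPM over the libraries of 5.3 mg/kg and at 251, 2015 and 2815 CPM at 42.4 mg/kg. The 42.4 mg/kg library B had the highest sums of the cell cycle list (479 CPM, against 43 to 159 CPM elsewhere) and of the satellite cell markers (241 CPM, against 31.8 to 84.2 CPM).

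Within the first deposited set, where the dose steps need no covariate, 607 of the 611 genes had all 3 libraries at 42.4 mg/kg above or below all 4 at the lower doses. Over all genes tested 1524 (9.46%) lay above and 1546 (9.6%) below in this way. An order without overlap over the 3 doses was kept by 91 of the 611 genes and by 30 of the 48 graded ones, and over all genes by 238 rising (1.48%) and 225 falling (1.4%). The same libraries entered the fit that called and classed these genes, so both counts describe the members and test nothing. Of the 611 genes, 121 were called in each of the 10 fits that left out 1 library, 46 higher and 75 lower, and these were 108 top only, 8 graded and 5 opposite genes. The top dose step called 203 genes without the 21.2 mg/kg library B, 211 without the 42.4 mg/kg library C, 227 without the 21.2 mg/kg library A, 256 without the 5.3 mg/kg library A and 266 without the 42.4 mg/kg library B. With the females alone it called 205, and without the set covariate 50. For the naming difference, 13 genes were called over all genes tested, of which 3 (Gnas, A930016O22Rik and Dbndd1) were among the 611, in the same direction. Its sign matched that of the top dose step for 458 of the 611 genes (75%) and for 61.8% of all genes.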

How the data were processed

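Poly(A) RNA from quadriceps was sequenced as paired reads, and the authors mapped the reads to GRCm39 (HISAT2 2.0.5 and DESeq2 in the submitters' processing notes) and deposited raw counts per Ensembl gene for 30 libraries. The counting options and annotation release are not given in the sources used here, and whether counting used strand is not stated, so genes that overlap on opposite strands are uncertain. The deposited counts were used as they stand, and 0 per-sample columns were left out.

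Counts of the 10 pacDNA-L9 libraries were filtered with filterByExpr (16107 of 56748 genes), scaled by TMM and fitted with edgeR 4.0.16 (glmQLFit, robust; R 4.3.3, limma 3.58.1), once on log2 dose with the deposited set (residual degrees of freedom 7) and once with dose as a factor and the set (6). Tests were two-sided and p-values were adjusted by Benjamini-Hochberg over all genes tested. CPM values were scaled by the same factors. Classes used a share of 0.333. The scripts were tested on simulated data. DESeq2 1.42.0 was an alternative, beside other scalings, filters, covariates and leaving out each library, and the closing section gives their effect.

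Genes named are, for each class and direction, the 6 with the largest change from 5.3 to 42.4 mg/kg among those called (mean of at least 5 CPM), or, where none passed, the 5 with the smallest unadjusted p, the 5 with the smallest p of the low step and of the curvature test in each direction, up to 4 called members per gene list and direction, Gtf2b, Acta1 and the CTG or CAG repeat genes. Genes outside this rule are those said to be chosen after their values were seen, those at a class border or called in an alternative fit, and list members given as counts or beside a list. The members and lists were chosen with earlier results of these data known. The letters A to D did not pair the libraries: deviations from the dose means correlated at -0.031 on average over 9 pairs with the same letter (-0.189 to 0.175), and at 0.012 over 24 pairs with different letters. Of the promoter sequences of RefSeq, those of GRCm38.p6 were searched, and gene coordinates are of GRCm39.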

Additional observations from a re-analysis of the deposited data

Results flagged for a closer look

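Of 219 groups of 4 to 10 libraries tested over the named genes, 13 held a library that stood apart from the others by Dixon's criterion, where chance alone gives about 1 in 20. Several fell on the same libraries.

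At 5.3 mg/kg, library D (second set, male) was highest for the heat shock gene Hspa8 (1282 CPM, next 566), the glucocorticoid target Tsc22d3 (551 CPM, next 219), the myogenic factor Myf6 (183 CPM, next 91.2) and Gramd2b (26.7 CPM, next 23.5), and lowest for the glucocorticoid receptor gene Nr3c1 (93.7 CPM, next 121). Library B was lowest for the ribosomal protein gene Rpl37a (100.3 CPM, next 119).

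Among the 6 first-set NT libraries, NT 6, which was grouped by column name with the 42.4 mg/kg libraries, was highest for Pdk4 (938 CPM, next 325), Depp1 (61 CPM, next 6.33), Zfp36 (68.7 CPM, next 26.6) and Adam8 (1.03 CPM, next 0.537), all genes that were higher at 42.4 mg/kg. NT 2 was highest for Lrp4 (27.6 CPM, next 18.9) and Fgd4 (25.5 CPM, next 17.8), and NT 5 for Ccl6 (6.18 CPM, next 3.25).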

How the results depend on the processing

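The trend, the top dose step, the low step, the high step and the curvature test called 1, 611, 0, 239 and 35 genes, in 48 graded, 496 top only and 67 opposite genes. Without a filter on low counts they called 87, 1953, 147, 1456 and 866 (282 graded, 1395 top only, 277 opposite), and with DESeq2's Wald test 206, 1395, 4, 920 and 380 (167, 1085, 179). With library size alone the trend called 2, the high step 361 and curvature 69, and the top dose step 757, of which 191 were higher and 566 lower, as the median top dose step of all genes moved from -0.00745 to -0.12. With at least 10 counts in every library the trend called 2, without robust estimation curvature called 9, and with sex as a covariate 16. Without the set covariate the trend, high step and curvature called 0 and the top dose step 50 (4 graded, 44 top only, 2 opposite), with Teddm2 at -2.83 and Rps27a at -0.37 reversed. In the first set alone the trend called 6, the low step 10, the high step 136 and curvature 22, with 310 top only. Dose on a linear scale gave 129 trend genes and dose rank 40. A CTG run of 6 or more was held by 1.48% of the lower coding genes.

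With the replicate letter as a block, which does not pair these libraries, the trend called 0, the top dose step 203, the high step 41 and curvature 1 (10 graded, 185 top only, 8 opposite), and the slope of Bcl6b was -0.68 (adjusted p = 0.15). Chosen after seeing the data, the females alone gave 17, 205, 15 and 1 (21 graded, 182 top only, 9 opposite), and genes detected as a covariate gave 0, 1, 1 and 1 (0 graded, 1 top only, 0 opposite), with the steps of Nr1d2 (0.39), Atf4 (-0.25), Hspa8 (-0.60), Sqstm1 (-0.40) and Optn (-0.19) reversed; the cause was not tested. Leaving out 1 library, the trend called 0 to 16, the top dose step 203 to 656, the low step 0 to 10, the high step 50 to 280 and curvature 0 to 43, with 15 to 79 graded, 162 to 539 top only and 12 to 115 opposite genes. Of 1972 refitted top dose steps of the named called genes, 1397 stayed past the threshold, 568 kept their direction alone and 7 reversed.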
